A study of Mus musculus with 12 samples.

Results

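Fibroblast growth factors (FGFs), platelet-derived growth factors (PDGFs), their receptors and the proteins that carry, transmit or damp their signals were followed in whole hearts of mice at postnatal day 8. Genes were taken by symbol: every Fgf gene with a number, the receptors Fgfr1 to Fgfr4 and Fgfrl1, the carriers Fgfbp1 and Fgfbp3, the co-receptors Kl and Klb, the adaptors Frs2 and Frs3, the Spry and Spred inhibitors, and every gene whose symbol begins with Pdgf. The array named 43 such genes among its 17742 genes, through 49 of 26423 probes, and where a gene had several probes the one of highest mean deposited intensity was used. These included 22 numbered Fgf genes, 5 FGF receptors and 7 Pdgf genes. Of the inhibitors, Spred1, Spred2 and Spred3 were measured, and no probe was named for Spry1 to Spry4.

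The study compared 2 samples of a conditional mutant of Salvador, labelled Salv CKO, with 2 controls labelled wild-type, all of the C57bl/6 X 129 hybrid background and all at postnatal day 8. Each sample was hybridised to 3 technical arrays with the dye Cy5, 12 arrays in all, and the 3 arrays were averaged to 1 value, so that n = 2 per group throughout. Salvador (Sav1) is the scaffold of the Hippo kinases, and the design asked which genes depend on that pathway in the young heart. The sources used here do not give the Cre driver, the deleted part of Sav1 or the number of hearts in a sample. One source label says embryonic heart, whereas the stage and tissue labels give P8 whole heart.

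As background, FGFs are secreted or intracellular proteins of a shared fold. Paracrine FGFs bind heparan sulphate and activate receptor tyrosine kinases, and the receptor passes its signal through the docking proteins Frs2 and Frs3 to the Ras and ERK cascade, which Sprouty and Spred proteins damp. Endocrine FGFs need a klotho protein as co-receptor, and the subfamily of Fgf11 to Fgf14 stays inside the cell and binds sodium channels. PDGFs are dimers that signal through Pdgfra, a receptor of fibroblasts and their precursors, and Pdgfrb, a receptor of pericytes and smooth muscle. In the developing heart, FGFs from the epicardium, endocardium and muscle act on growth and on coronary vessels, and endothelial Pdgfb recruits mural cells.

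The levels below are log2(intensity + 1) after quantile normalization between arrays, and a difference is Salv CKO minus Control on that scale. A level also depends on the probe, so levels of different genes are not compared. With whole hearts, fewer cells of a type and less RNA per cell cannot be told apart. The targeted gene did not separate the labels: the Sav1 probe read 8.06 and 8.52 in Salv CKO 1 and 2 against 8.75 and 8.08 in Control 1 and 2 (difference -0.12 ± 0.34, SE), and whether it lies in the deleted part is unknown here. Samples are therefore named by label, and every direction below is that of the labels. The heart muscle markers Tnnt2, Tnni3, Actc1 and Pln were bright in all 4 samples, at levels from 14.88 to 15.62. Across all probes the sample labelled Salv CKO 1 had its highest correlation with Control 2 (r = 0.9865) and its lowest with Control 1 (r = 0.9759), which describes the libraries only.

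No FGF or PDGF gene passed the test between the groups. In limma, 0 of 43 passed an adjusted p of 0.05 (the lowest was 0.999), where 0% of all probes passed (0 of 26423). At an unadjusted p under 0.05 there were 0 of 43, beside 3.96% of all probes. The difference was above 0 for 21 and below 0 for 22, with a median of -0.02, and 48.6% of all probes were above 0, with a median of -0.01. The groups did not overlap for 12 of 43 genes, of which 4 were higher and 8 lower in Salv CKO, where 14.8% of all probes were higher without overlap and 15.8% lower, 30.6% together. These shares lie near those of the whole array. Overlap was judged on normalized levels. The deposited means overlapped for most of the 12, namely Fgf10, Fgf13, Fgf16, Fgfr4, Klb, Pdgfc, Spred1 and Spred3. For Fgf22 they were higher in Salv CKO, against the normalized direction. Only Fgf4, Fgf7 and Fgf12 kept their direction without overlap. The precision was limited by the number of samples: the 95% interval of a difference reached a median of 0.81 to each side. The median SD was 0.168 between technical arrays of a sample and 0.35 between samples of a group for these genes, against 0.191 and 0.27 for all probes.

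**Figure D1:**
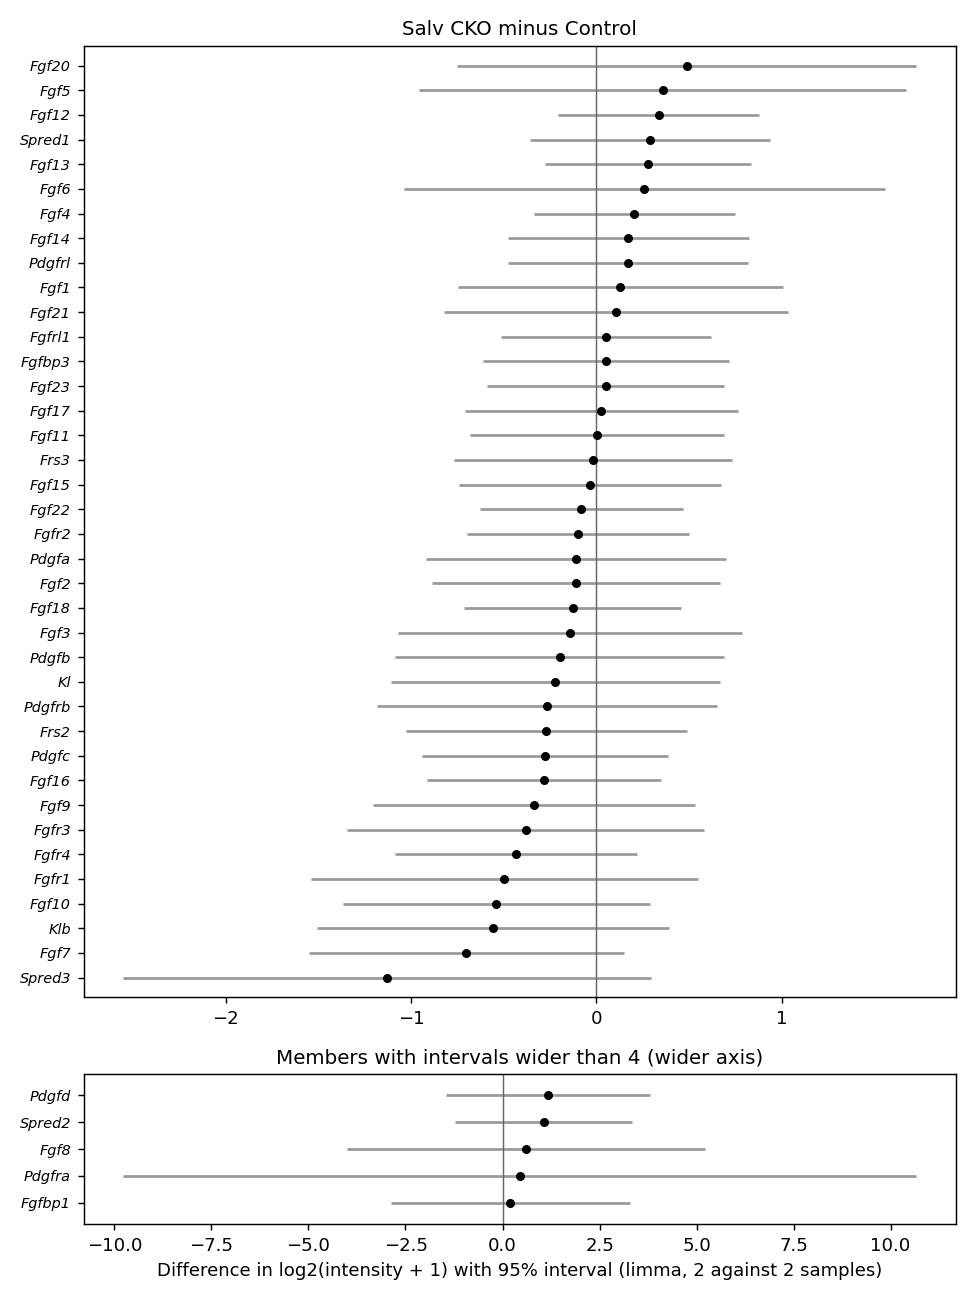
Salv CKO minus Control for the 43 FGF and PDGF genes, in log2(intensity + 1), with points for the limma difference and bars for its 95% interval (2 samples against 2). Every interval spans 0, and the 5 genes in the lower panel, drawn on a wider axis, have intervals from -9.77 to 10.65 at the widest, that of Pdgfra.

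Among the PDGF ligands, Pdgfa, which acts mainly through Pdgfra, had levels of 10.68 and 10.93 in Salv CKO 1 and 2 and of 11.24 and 10.59 in Control 1 and 2. Pdgfb, the endothelial ligand of Pdgfrb, stood at 9.43 and 9.72 against 10.15 and 9.40. For both genes Control 1 was highest with all 3 of its arrays, Salv CKO 2 came next, and Salv CKO 1 and Control 2 lay lowest and close together. The differences were -0.11 for Pdgfa (95% interval -0.92 to 0.70, limma adjusted p = 0.999) and -0.20 for Pdgfb (-1.08 to 0.69, adjusted p = 0.999). Pdgfc, a ligand that a protease must activate, had levels of 5.43 and 5.87 against 5.98 and 5.87, without overlap before rounding but with a difference of only -0.28 ± 0.25 (SE). Its deposited intensities were 34 to 73, and their sample means overlapped between the groups.

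Pdgfd, another ligand that needs activation and binds Pdgfrb, was low in a single sample. Its deposited intensity was 11 to 18 on the arrays of Control 1, and sample means were 112 in Salv CKO 1, 117 in Salv CKO 2 and 126 in Control 2. On the log2 scale this gave 6.86 and 6.70 in Salv CKO 1 and 2 against 4.13 and 7.09 in Control 1 and 2, a spread of 7.74-fold between the highest and lowest sample. The groups overlapped, since Control 2 was highest. The difference of 1.17 ± 1.00 (SE, limma adjusted p = 0.999) rested on Control 1 and was -0.31 without it.

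Among the PDGF receptors, the Pdgfra probe was bright in some samples and at background in others. It had deposited intensities of -2 to 3 on the arrays of Salv CKO 1 and 1 to 7 on those of Control 1, which is background, and 1925 to 2069 on those of Salv CKO 2. In Control 2 it read 1497 and 1610 on 2 arrays and 17 on the second. The log2 levels were 1.01 and 10.72 in Salv CKO 1 and 2 and 2.14 and 8.71 in Control 1 and 2, so the samples numbered 1 were dim and those numbered 2 bright in either group. The dim levels are set by the floor and the pseudocount, so no fold is given. Salv CKO minus Control was 0.44 ± 3.87 (SE, limma adjusted p = 1), and this was -0.74 with the median of technical arrays and -0.55 without the second array of Control 2. That array stood at least 3 below both other arrays of its sample for 33 probes, or 0.125% of all, while such counts ran from 11 to 40 on the 12 arrays.

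The other fibroblast markers did not part the samples in this way. Of 11 listed, 10 were measured, and their summed normalized intensity ranged from 87851 in Salv CKO 1 to 91411 in Control 2, with 89564 in Control 1 and 90859 in Salv CKO 2. Dcn, Lum, Postn and Col1a2 were bright in every sample, and Tcf21, a transcription factor of cardiac fibroblasts, stood at 10.25 and 9.84 in Salv CKO 1 and 2 against 9.71 and 10.24. Only Col1a1 among the 10 was at the level of noise, with sample means no larger than 10, the size of the most negative deposited value. The sum was nearly level while the Pdgfra probe went from background to about 2000. It was weighted towards the brightest genes, however, and could hardly show a change of that size. Dcn alone had deposited means of 35400 (Salv CKO 1) to 41855 (Salv CKO 2). The part of fibroblast content in the Pdgfra values was not tested.

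Pdgfrb, the receptor of pericytes and smooth muscle, was bright in all samples, at 11.08 and 11.38 in Salv CKO 1 and 2 and 11.90 and 11.10 in Control 1 and 2. As for its ligand Pdgfb, Control 1 was highest on all 3 arrays and Salv CKO 2 came next, with the remaining samples close together. The difference was -0.27 (95% interval -1.19 to 0.65, limma adjusted p = 0.999), and 0.13 without Control 1. Of 11 listed mural markers 9 were measured, with summed intensities of 13060 and 12544 in Salv CKO 1 and 2 and 14465 and 23372 in Control 1 and 2. The last sum rested on a single array of Control 2, on which Acta2, smooth muscle actin, read 30349 where the other 11 arrays read 2 to 29. Without Acta2 the sums were 13056 and 12537 against 14446 and 13189. The groups did not overlap for 5 of the 9 markers, 0 higher and 5 lower in Salv CKO, beside 14.8% and 15.8% of all probes. The smooth muscle gene Tagln stood at 3.72 and 3.18 in Salv CKO 1 and 2 against 5.68 and 5.22, at deposited intensities of 5 to 47 (difference -2.0, limma unadjusted p = 0.00181, adjusted p = 0.999). Acta2, counted among the 5, differed by -2.80 (unadjusted p = 0.0671 in limma), which rested largely on the array of 30349. Acta2 had 2 probes, and the one used was picked by its mean deposited intensity, which rested on that same array. Values of the other probe are not given here. The remaining arrays of Control 2 read 8 and 6, where those of Salv CKO read 3 to 8. Cnn1, a smooth muscle gene at the level of noise, differed by -1.18 (unadjusted p = 0.0127 in limma). Mcam and Cspg4 were the other lower markers after normalization (-0.34 and -0.22), but their deposited means overlapped between the groups. Rgs5, Abcc9, Kcnj8 and Des overlapped after normalization (-0.06 to 0.10). The part of mural cell content in the Pdgfrb values was not tested. Pdgfrl, a receptor-like protein without a kinase, stood at 8.88 and 8.63 against 8.42 and 8.74, with Salv CKO 1 above and Control 1 below all other arrays (difference 0.17 ± 0.24, SE).

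**Figure D2:**
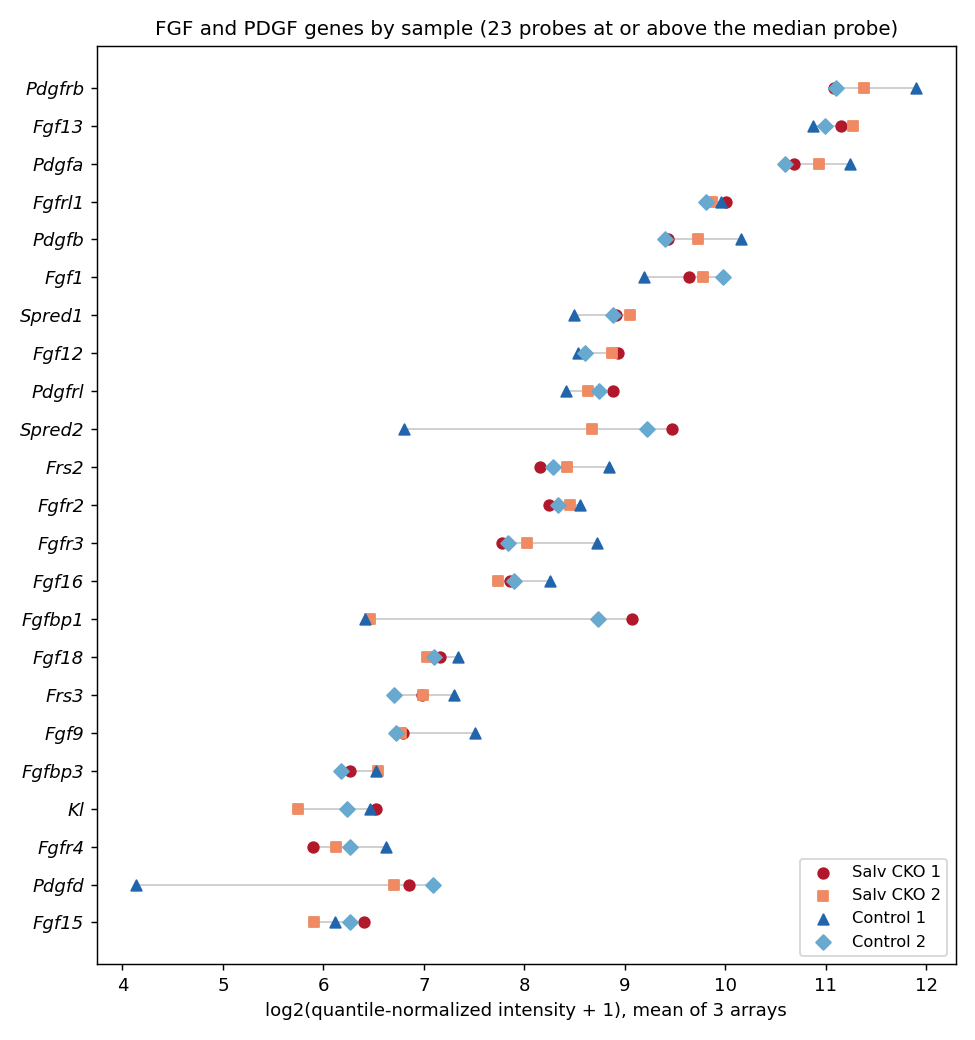
Level of the 23 FGF and PDGF genes whose probe was at or above the median probe, in log2(quantile-normalized intensity + 1), with 1 symbol per sample (mean of 3 technical arrays) and a grey line over the 4 samples. Control 1 lies at an end of the line for most genes, as for Pdgfd at 4.13 and Pdgfrb at 11.90. Levels of different genes are not comparable.

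Promoter windows from RefSeq (GRCm38.p6, 250 bases before to 50 after the start, 300 in all) were matched by symbol for 33 of the 43 genes, in 41 windows. Shown are those of Pdgfra, Pdgfd and Fgfbp1, whose probes differed widely between samples, and that of Pdgfc, which held more than a single match to GGAATG, the core of the site bound by the TEAD partners of Yap1. Capitals mark GGAATG on either strand, the GC box motif GGGCGG and the start-site motif TATAAA, likewise on both strands, and no marked matches overlapped. The Pdgfra window is chr5:75152001-75152300 on the + strand, that of Pdgfd chr9:6168236-6168535 (+), that of Fgfbp1 chr5:43981750-43982049 (-) and that of Pdgfc chr3:81036166-81036465 (+), each read 5′ to 3′.
Pdgfra: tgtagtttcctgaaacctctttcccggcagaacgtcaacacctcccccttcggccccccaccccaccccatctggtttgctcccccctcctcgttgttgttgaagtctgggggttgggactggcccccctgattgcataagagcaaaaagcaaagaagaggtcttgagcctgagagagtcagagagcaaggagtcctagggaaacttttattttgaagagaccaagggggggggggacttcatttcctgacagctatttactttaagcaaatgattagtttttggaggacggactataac
Pdgfd: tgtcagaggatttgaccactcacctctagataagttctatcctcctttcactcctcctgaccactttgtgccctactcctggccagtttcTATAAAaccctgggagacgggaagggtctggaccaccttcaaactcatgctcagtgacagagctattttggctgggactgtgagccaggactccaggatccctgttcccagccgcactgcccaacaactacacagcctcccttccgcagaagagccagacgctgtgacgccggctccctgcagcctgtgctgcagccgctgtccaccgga
Fgfbp1: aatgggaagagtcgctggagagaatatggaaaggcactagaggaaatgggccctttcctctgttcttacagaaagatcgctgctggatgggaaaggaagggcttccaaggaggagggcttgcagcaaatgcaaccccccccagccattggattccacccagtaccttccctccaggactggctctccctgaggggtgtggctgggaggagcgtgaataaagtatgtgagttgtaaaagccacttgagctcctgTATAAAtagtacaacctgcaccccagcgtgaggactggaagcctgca
Pdgfc: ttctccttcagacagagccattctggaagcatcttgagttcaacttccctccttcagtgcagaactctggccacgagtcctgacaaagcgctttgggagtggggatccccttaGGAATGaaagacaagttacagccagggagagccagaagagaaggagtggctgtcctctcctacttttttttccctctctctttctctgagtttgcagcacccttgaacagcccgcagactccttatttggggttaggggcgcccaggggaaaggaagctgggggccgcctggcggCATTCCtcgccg
Pdgfd and Fgfbp1 each held 1 TATAAA, Pdgfc held GGAATG once on each strand, and Pdgfra held none of these letters. GGAATG was found in 17.1% of the members' windows (7 genes: Fgf3, Fgf11, Fgf12, Fgf14, Fgfr4, Klb and Pdgfc) and in 14.7% of all 32851 windows. GGGCGG was in 63.4% against 35.7%, and TATAAA in 14.6% against 13.6%. These matches describe the letters of the windows, and they were not related to the levels.

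The signalling FGF receptors Fgfr2, Fgfr3 and Fgfr4 were measured above the noise. Fgfr2 stood at 8.24 and 8.45 in Salv CKO 1 and 2 and at 8.55 and 8.34 in Control 1 and 2. Fgfr3 stood at 7.78 and 8.03 against 8.73 and 7.84, with Control 1 above every other array. Fgfr4 stood at 5.89 and 6.13 against 6.62 and 6.27, and was the only receptor whose groups did not overlap after normalization. The differences were -0.10 (95% interval -0.70 to 0.50) for Fgfr2, -0.38 (-1.34 to 0.58) for Fgfr3 and -0.43 (-1.09 to 0.22) for Fgfr4, each with a limma adjusted p of 0.999. Without Control 1 the Fgfr3 difference was 0.06, and that of Fgfr4 was -0.26.

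The Fgfr1 probe read -3 to 9 in deposited intensity over all 12 arrays. Fgfr1 is the main FGF receptor of heart muscle, but this probe was not above the noise, and its difference of -0.50 ± 0.40 (SE) cannot be read as a change. Fgfrl1, a receptor that lacks the kinase, was the most even of the receptors. Its levels were 10.01 and 9.87 in Salv CKO 1 and 2 against 9.96 and 9.81 in Control 1 and 2, with a difference of 0.05 (95% interval -0.51 to 0.62), and its other probe differed by 0.01.

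Among paracrine FGFs, Fgf1, a heparin-binding ligand of all the FGF receptors, stood at 9.64 and 9.78 in Salv CKO 1 and 2 and at 9.19 and 9.97 in Control 1 and 2. The controls bounded the mutants on either side, Control 1 below and Control 2 above every other array, and the difference was 0.13 (95% interval -0.75 to 1.01). Fgf9, an epicardial and endocardial ligand of the developing heart, stood at 6.79 and 6.77 against 7.51 and 6.72. Only Control 1 stood apart there, and the difference of -0.34 ± 0.33 (SE, limma adjusted p = 0.999) was 0.06 without it. The other, dimmer Fgf9 probe (deposited intensity 10 to 29) differed by -0.74 and was the lower in both Salv CKO samples (limma unadjusted p = 0.024, adjusted p = 0.999).

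Fgf16, a ligand of the Fgf9 subfamily made by heart muscle, stood at 7.85 and 7.74 against 8.26 and 7.90. The groups did not overlap after normalization. The Fgf16 difference was -0.28 (95% interval -0.91 to 0.35), -0.10 without Control 1, and a dim second probe differed by -0.26. Fgf18, a ligand of skeletal and lung growth, stood at 7.16 and 7.03 against 7.34 and 7.11, with a difference of -0.13 ± 0.22 (SE). Thus Control 1 held the highest level of Fgf9, Fgf16 and Fgf18 and the lowest of Fgf1.

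The remaining paracrine FGFs, apart from Fgf8, were dim. Fgf3 (20 to 49 in deposited intensity), Fgf4 (9 to 37), Fgf6 (2 to 13), Fgf10 (6 to 18), Fgf17 (6 to 15) and Fgf22 (10 to 24) were low on every array. Fgf2, Fgf5, Fgf7 and Fgf20 had sample means no larger than 10 and were at the level of noise, as were Fgfr1 and Klb, 6 genes in all. Fgf7, the keratinocyte growth factor, had the smallest unadjusted p of the 43 genes (0.0858, limma adjusted p = 0.999), with a difference of -0.70 ± 0.32 (SE) from deposited intensities of -1 to 10. Fgf10, a ligand of lung and epicardial growth, stood at 3.54 and 3.43 in Salv CKO 1 and 2 and at 4.38 and 3.67 in Control 1 and 2. Its groups did not overlap after normalization but did in deposited means, and the difference was -0.54 ± 0.31 (SE) and -0.18 without Control 1. No difference of these dim probes was detectable at the precision of 2 samples per group.

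Fgf8 and the carrier Fgfbp1 were high in the same samples, 1 of each label. Fgfbp1, a secreted protein that releases FGFs from heparan sulphate, had a deposited mean of 463 in Salv CKO 1 and one of 394 in Control 2, and the other samples read 99.7 (Salv CKO 2) and 77.7 (Control 1). Its levels were 9.07 and 6.46 in Salv CKO 1 and 2 and 6.41 and 8.73 in Control 1 and 2, a spread of 6.31-fold. The brightest Fgf8 probe read 68 (Salv CKO 1) and 62.7 (Control 2) where the others read 7.67 (Salv CKO 2) and 3.33 (Control 1), below the size of the noise. Salv CKO minus Control was 0.20 ± 1.17 for Fgfbp1 and 0.60 ± 1.75 for Fgf8 (SE, limma adjusted p = 1 and 0.999). The other Fgf8 probes read -5 to 11 on all arrays and did not follow this order. One of them differed by 1.41 (limma unadjusted p = 0.00298, adjusted p = 0.999), at deposited intensities of -5 to 6.

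Airway markers were high in those samples too. Scgb1a1, the secretoglobin of club cells, had deposited means of 455 (Salv CKO 1) and 2125 (Control 2), whereas the others had 17.7 (Salv CKO 2) and 12 (Control 1). Its technical arrays disagreed, with an SD of 1.36 on the log2 scale, beside a median of 0.191 for all probes. Scgb3a2, another airway secretoglobin, read 1290 and 2744 against 9.67 and 17, and Sftpd, a lung surfactant protein, 83.7 and 86.7 against 4.67 and 5. Of 8 listed airway and lung markers 7 were measured, and their normalized intensities summed to 2261 (Salv CKO 1), 5564 (Control 2), 80.4 (Salv CKO 2) and 77.5 (Control 1). Foxa2 was at the level of noise in all samples. Sftpb and Sftpa1 were higher in Control 2 (5.79 and 4.06) and not in Salv CKO 1 (3.43 and 2.56, with 2.43 to 2.85 in the other samples). The part of airway tissue in the Fgfbp1 and Fgf8 values was not tested.

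**Figure D3:**
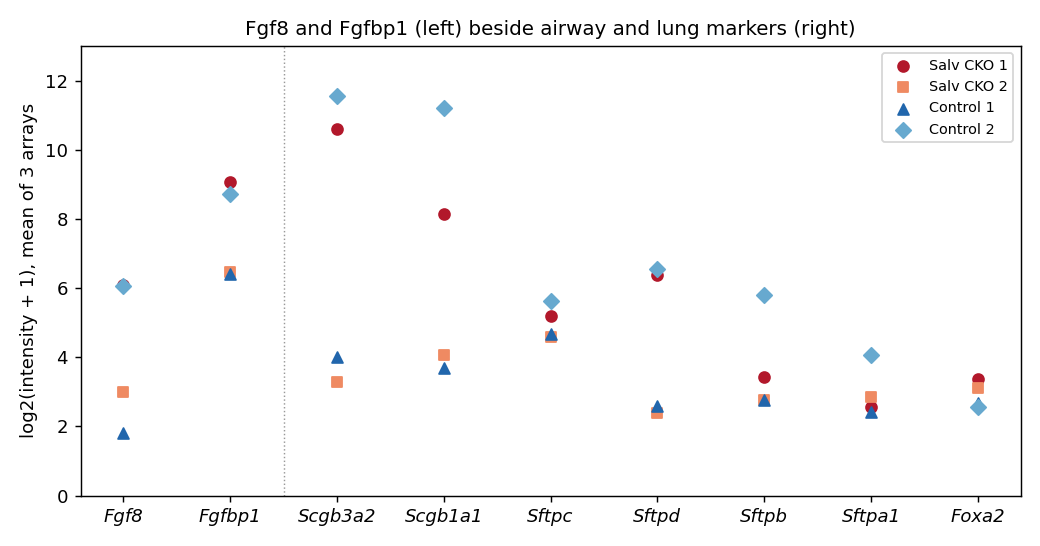
Level of Fgf8 and Fgfbp1 (left of the dotted line) and of 7 airway and lung markers in log2(intensity + 1), with 1 symbol per sample (mean of 3 arrays). For Fgf8, Fgfbp1, Scgb3a2, Scgb1a1 and Sftpd the samples Salv CKO 1 and Control 2 are well above the others.

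Fgfbp3, a further carrier, did not share this order. It stood at 6.27 and 6.54 in Salv CKO 1 and 2 and at 6.53 and 6.17 in Control 1 and 2, with a difference of 0.05 (95% interval -0.61 to 0.72).

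All 4 intracellular FGFs had a difference above 0, beside 48.6% of all probes, though 0 of 4 passed and that of Fgf11 was close to 0. Fgf13, which modulates cardiac sodium channels, had levels of 11.15 and 11.27 in Salv CKO 1 and 2 and of 10.87 and 10.99 in Control 1 and 2. Fgf12, the other well-studied cardiac member, stood at 8.93 and 8.88 against 8.53 and 8.60. Both were higher in each Salv CKO sample than in each control after normalization, as were 14.8% of all probes. Before it the Fgf13 groups overlapped, with deposited means of 1880 in Salv CKO 1 and 2043 in Control 1. The differences were 0.28 for Fgf13 (95% interval -0.28 to 0.83) and 0.34 for Fgf12 (-0.21 to 0.88), with limma adjusted p of 0.999 each. Leaving out any 1 sample kept them between 0.22 and 0.34 for Fgf13 and between 0.30 and 0.37 for Fgf12. Fgf14 stood at 5.96 and 6.01 against 5.60 and 6.03, so only Control 1 was low, and the difference was -0.037 without it. Fgf11, at deposited intensities of 18 to 42, differed by 0.01, and by -0.032 with the median of technical arrays. At a pseudocount of 50, Fgf12 and Fgf13 had unadjusted limma p under 0.05, as did 3.76% of all probes, with no adjusted p under 0.05.

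The endocrine ligands overlapped between the groups. Fgf15, the ileal regulator of bile acids, stood at 6.41 and 5.90 in Salv CKO 1 and 2 and at 6.11 and 6.27 in Control 1 and 2. Fgf23, the phosphate hormone of bone, stood at 5.99 and 5.95 against 5.72 and 6.12, and Fgf21, a metabolic hormone of liver and fat, at 3.91 and 3.35 against 3.86 and 3.19. Their differences were -0.03, 0.05 and 0.11 in that order. Kl, the co-receptor of Fgf23, stood at 6.52 and 5.74 against 6.46 and 6.24, with Salv CKO 2 lowest and a difference of -0.22 ± 0.34 (SE).

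Klb, the co-receptor of Fgf15 and Fgf21 in liver and fat, was at the level of noise, with deposited intensities of only 3 to 16. After normalization it was lowest in Salv CKO 2 (2.22, against 3.10 in Salv CKO 1 and 3.13 and 3.31 in the controls), without overlap of the groups. The deposited means overlapped, at 9.33 and 4 in Salv CKO 1 and 2 against 7.67 and 8.33 in Control 1 and 2. Most fat markers were lowest in Salv CKO 2 too. Of 11 listed, 10 were measured, and 8 of these were lowest in Salv CKO 2, while Lep was lowest in Control 1 and Prdm16 in Salv CKO 1. The 10 had summed intensities of 21290 and 16428 in Salv CKO 1 and 2 against 27619 and 23062 in Control 1 and 2. Their groups did not overlap for 1 higher and 6 lower markers, beside 14.8% and 15.8% of all probes. The median difference of the 10 was -0.72. The brown fat gene Ucp1 read 9.75 in Salv CKO 2 and 11.74 to 12.71 elsewhere, and Elovl3 was at the level of noise. The part of fat in the Klb and Kl values was not tested.

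Of the docking proteins, Frs2 stood at 8.16 and 8.43 in Salv CKO 1 and 2 and at 8.84 and 8.29 in Control 1 and 2. Frs3 stood at 6.98 and 6.99 against 7.30 and 6.71. Control 1 was above every other array for both, and the differences were -0.27 (95% interval -1.03 to 0.49) and -0.02 (-0.77 to 0.73). Without Control 1 they were 0.01 and 0.28.

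The Spred inhibitors hold back Ras and Raf, and 0 of 3 passed the test. Spred1 stood at 8.91 and 9.05 in Salv CKO 1 and 2 and at 8.50 and 8.89 in Control 1 and 2. The groups did not overlap after normalization, though the deposited means did. Its difference was 0.29 (95% interval -0.36 to 0.94) and 0.10 without Control 1. Spred2 stood at 9.47 and 8.67 against 6.81 and 9.22. Its low value rested on single arrays of Control 1, which read 459, 12 and 208, and the difference of 1.06 ± 0.86 (SE) was -0.15 without that sample. The other Spred2 probe was even, with a difference of -0.16. Spred3 stood at 4.09 and 5.52 against 6.18 and 5.69, where Salv CKO 1 was below and Control 1 above all other arrays. Its deposited means were 17.3 and 49.7 against 65.7 and 47. These means overlapped, and the groups did not overlap only after quantile normalization. The difference was the lowest of the 43 genes, -1.13 ± 0.54 (SE, limma unadjusted p = 0.0956, adjusted p = 0.999). It was -0.41 without Salv CKO 1.

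**Figure D4:**
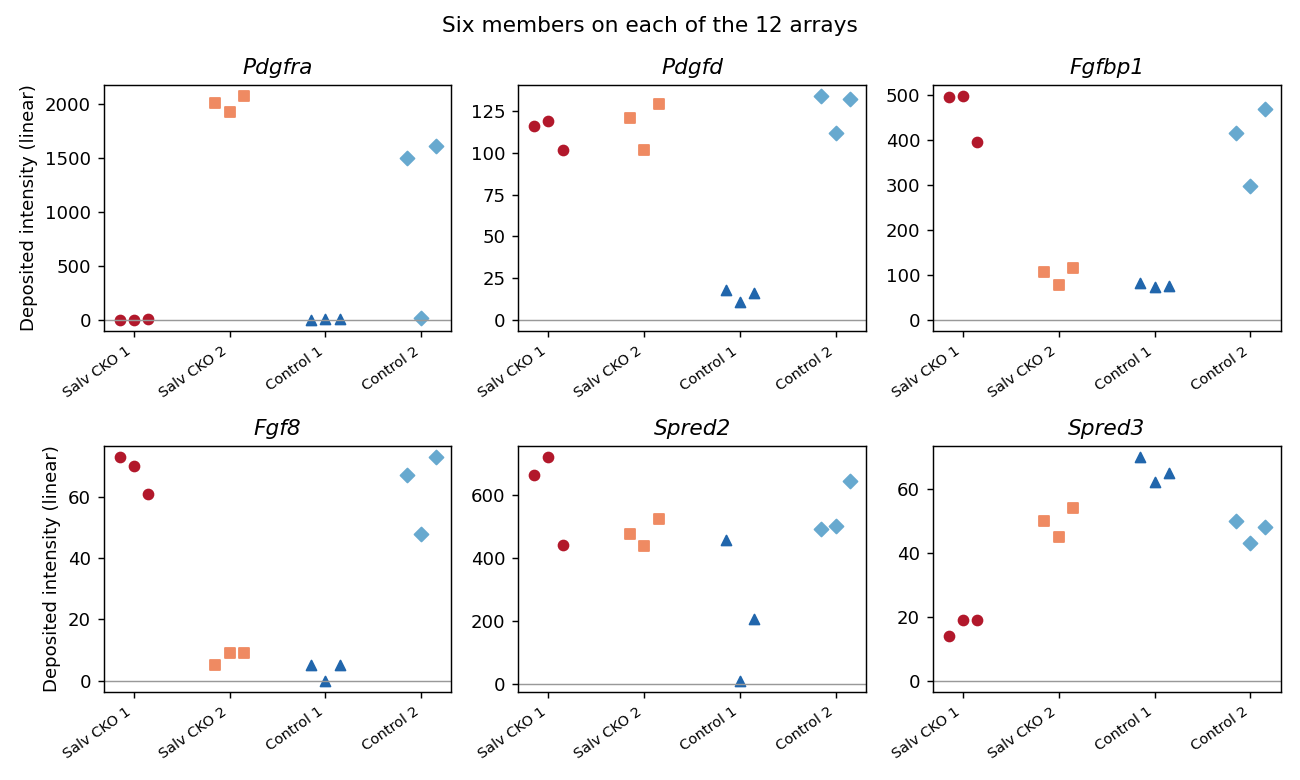
Deposited intensity (linear scale) of Pdgfra, Pdgfd, Fgfbp1, Fgf8, Spred2 and Spred3 on each of the 12 arrays, with 3 points for the technical arrays of each sample. Pdgfra is near 0 in Salv CKO 1, Control 1 and 1 array of Control 2, Pdgfd is low in Control 1 alone (11 to 18), and Fgfbp1 and Fgf8 are high in Salv CKO 1 and Control 2.

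Single samples often stood apart from the other samples of both labels. All 3 arrays of Control 1 lay beyond the other 9 for 16 of 43 genes, 11 above and 5 below, beside 24.9% of all probes. The same held for 4 genes in Salv CKO 1 (13.3% of all probes), for 1 in Salv CKO 2 (5.47%) and for 3 in Control 2 (7.96%). Among the 23 genes at or above the median probe Control 1 stood apart for 13, or 56.5%, beside 42% of probes of that brightness. The lowest pair of samples was Salv CKO 1 and Control 2 for 12 of 43 genes, or 27.9%, including Pdgfa, Pdgfb, Pdgfrb, Fgfr2, Fgfr3, Frs2 and Frs3, beside 23.7% of all probes. These shares were not tested.

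The pathway around the receptors was described by 3 further lists, in which 0 genes passed an adjusted p of 0.05 in limma. Of 34 genes of receptor signal transduction 28 were measured, 15 above and 13 below 0, with a median of 0.01 and 0 at an unadjusted p under 0.05. The adaptor gene Crkl differed by 0.45 and the kinase gene Mapk3 (ERK1) by 0.30, without overlap, and Pik3cb, a lipid kinase subunit, by -0.30. Plcg1 differed by 1.27 from sample means of 1.67 to 10.7 in deposited intensity, too dim to be read. Each of these had an adjusted p of 0.999.

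ERK-induced targets and feedback genes other than Spry and Spred numbered 24 of 25 measured, 12 above and 12 below 0, with a median of 0.01. Dusp6, the ERK phosphatase that reports FGF signalling, stood at 9.96 and 10.21 in Salv CKO 1 and 2 and at 10.04 and 9.96 in Control 1 and 2, a difference of 0.09 (95% interval -0.50 to 0.67). Etv5, a target transcription factor, was highest in Control 1 (8.49, against 7.64 to 8.16 elsewhere) and differed by -0.34. The list did not share 1 order, since Fos, Egr1 and Dusp5 were lowest in Control 1. They stood there at 10.37, 12.58 and 5.27, against 11.24 to 11.60, 13.17 to 13.41 and 6.21 to 6.77 elsewhere. Flrt1, a receptor partner, differed by -0.32 and Rasal1, a Ras inhibitor, by -0.26. At an unadjusted p under 0.05 there was 1 gene, Etv1 (limma unadjusted p = 0.0314, adjusted p = 0.999). It was at the level of noise with sample means of at most 5, as was Dusp9 (difference 0.56).

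Heparan sulphate enzymes, proteoglycans and other cofactors, which present FGFs and PDGFs to their receptors, had 34 of 35 genes measured. Of these 11 were above and 23 below 0, with a median of -0.14, beside -0.01 for all probes. The groups did not overlap for 4 higher and 11 lower genes, where the array gave 14.8% and 15.8%. The syndecan genes Sdc4 and Sdc2, membrane proteoglycans, differed by -0.44 and -0.36, the sulphotransferase gene Ndst3 by -0.49 from sample means of at most 13.3, and the glypican gene Gpc2 by 0.33. Each had a limma adjusted p of 0.999, and 0 of the 34 had an unadjusted p under 0.05.

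**Figure D5:**
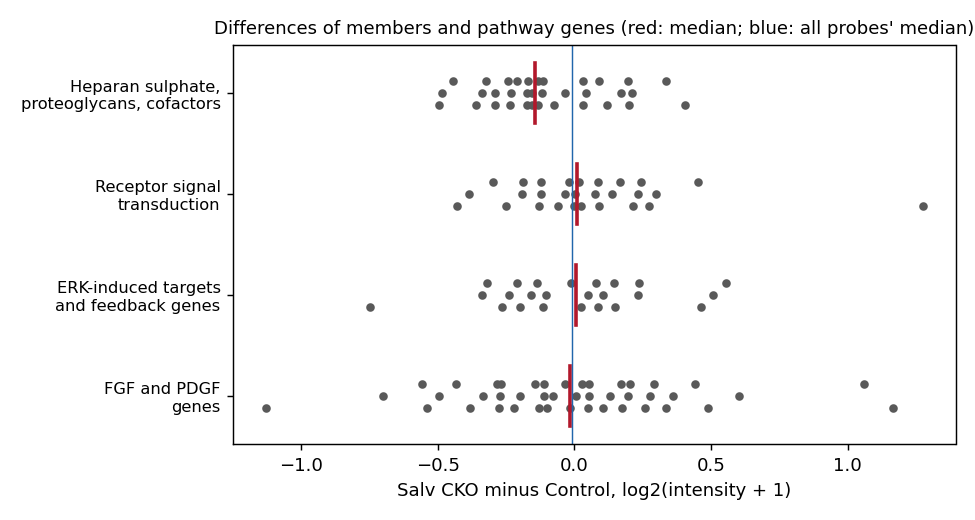
Salv CKO minus Control in log2(intensity + 1) for the 43 FGF and PDGF genes and for the genes of 3 pathway lists, with 1 point per gene, a red line at each list's median and a blue line at the median of all probes (-0.01). The medians are -0.02, 0.01, 0.01 and -0.14 from bottom to top.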

How the data were processed

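Total RNA of whole hearts was hybridised to 12 one-colour oligonucleotide arrays, 3 for each of 4 samples, per the labels. The deposited values are intensities, whole numbers from -10 to 65474 for 26423 probes. Some lay below 0, so a background was already taken off, and array medians ran from 58 to 88, so the arrays did not share a median. The sources used here do not name the authors' scanner or normalization.

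Arrays were quantile normalized (limma 3.58.1, R 4.3.3), values under 0.0833, the lowest positive one, were set to it, and log2(intensity + 1) was taken. This understates changes of dim probes. Technical arrays were averaged, and 2 samples were compared with 2 in limma (lmFit, eBayes; residual df 2, prior df 2.60). Two-sided p-values were Benjamini-Hochberg adjusted over all probes at 0.05, and intervals are 95% intervals from the moderated fit. The labels call the samples biological replicates without naming animals, so p-values reflect only how these samples vary, which may be technical, and their number limits the precision. The fit was tested on simulated data, with changes larger than any member difference planted in bright probes only. That test does not show what could be detected among dim probes or for smaller differences.

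Symbols came from the platform annotation (20377 probes with 1 symbol, 0 with several, 6046 with none) and were updated through RefSeq GRCm38.p6 (18213 matched by symbol, 2126 by synonym, 38 not). No probe position is printed, since the sources used here do not state the probes' build. Promoters are RefSeq's for GRCm38.p6. The members and lists were chosen with earlier results of these data known. By the naming rule, values in every sample are given for genes at or above the median probe, other genes by range, and from each pathway list the 4 genes of smallest p. Dimmer genes given by sample, single marker genes, Dusp5, Dusp6, Egr1, Etv5 and Fos were chosen after their values were seen. A probe was called at the level of noise where no sample mean exceeded 10, the size of the most negative value. Replicate numbers 1 and 2 are shared by the groups, but samples of 1 number did not deviate together (r = -0.253 over probes), so no pairing was used. The alternatives covered scaling, pseudocounts, technical arrays, pairing, dim probes, the variance model, the probe per gene and each sample left out. Figures were drawn with matplotlib 3.10.9.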

Additional observations from a re-analysis of the deposited data

How the results depend on the processing

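In 17 alternatives no member passed an adjusted p of 0.05 in limma (0 of 43), and in each the medians of the members and of the 3 pathway lists moved by less than the SD between samples. The crossed pairing, the removal of the second array of Control 2 and the mural sum without Acta2 were added after seeing the data. Probes that passed numbered 0 of 26423, and 10 with median centring, 11 without normalization and 61 with all 12 arrays and the sample as a random block. Members at an unadjusted p under 0.05 numbered 0, and 1 with median centring (Spred3), 1 without normalization (Pdgfd), 2 at a pseudocount of 50, 1 with the median of technical arrays (Fgf7), 2 with the random block (Spred1 and Spred3), and 1 to 6 with 1 sample left out (6 without Control 2, where 10.7% of probes had such a p). Probes at that p numbered 1047, and 2202 with the random block, 599 once the dimmest 25% were dropped and 327 once 50% were (fewer probes were tested), and 638 to 2828 with 1 sample left out (638 without Salv CKO 1, 2828 without Control 2). With the replicate block, 0 members and 0 probes passed, and 0 members had an unadjusted p under 0.05. With the crossed pairing 0 probes and 0 members passed, and 2 members had such a p.

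Of 531 member differences recomputed with all 4 samples, 15 changed sign, in 10 genes. Median centring gave -0.033 for Fgf1, 0.0060 for Fgf22, 0.017 for Fgf3 and -0.13 for Fgfrl1. Without normalization, where the median of all probes was 0.109 in place of -0.01, Fgf15 was 0.14, Fgf18 0.018, Fgf2 0.12, Fgf22 0.20, Fgf3 0.21, Frs3 0.14 and the list gene Rasal1 0.082. The median of technical arrays gave -0.032 for Fgf11, 0.084 for Fgf15 and -0.74 for Pdgfra, and without the second array of Control 2 Fgf2 was 0.26 and Pdgfra -0.55. With 1 sample left out, 28 of 43 members and Sav1 changed sign at least once, and their differences ran as follows: Fgf1 -0.26 to 0.52, Fgf11 -0.24 to 0.25, Fgf14 -0.037 to 0.38, Fgf15 -0.29 to 0.22, Fgf17 -0.21 to 0.26, Fgf2 -0.40 to 0.18, Fgf20 -0.11 to 1.08, Fgf21 -0.23 to 0.44, Fgf23 -0.15 to 0.25, Fgf3 -0.57 to 0.29, Fgf5 -0.28 to 1.00, Fgf6 -0.27 to 0.78, Fgf8 -1.53 to 2.74, Fgf9 -0.73 to 0.057, Fgfbp1 -1.11 to 1.5, Fgfbp3 -0.12 to 0.23, Fgfr2 -0.21 to 0.0085, Fgfr3 -0.82 to 0.063, Fgfrl1 -0.021 to 0.13, Frs2 -0.55 to 0.0055, Frs3 -0.32 to 0.28, Kl -0.61 to 0.17, Pdgfa -0.43 to 0.21, Pdgfb -0.58 to 0.18, Pdgfd -0.31 to 2.64, Pdgfra -4.42 to 5.30, Pdgfrb -0.67 to 0.13, Spred2 -0.15 to 2.26, Sav1 -0.46 to 0.21. The cause was not tested. With 2 samples per group, and dim probes within about 10 intensity units of 0, differences much under 0.81 could not be resolved.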
